A study of Homo sapiens with 12 samples.

Results

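Salinomycin-treated HMLE-Twist cells were compared with salinomycin-treated HMLE-pBp cells across all genes, in the 6 of the series' 12 RNA sequencing libraries that the labels give for these groups. HMLE is an established, immortalised line of human mammary epithelial cells. HMLE-Twist was made to express the transcription factor TWIST1 and is labelled EMT, for epithelial to mesenchymal transition, and HMLE-pBp carries the control vector and is labelled nonEMT. Both lines were grown in the same HMLE medium, and each group has 3 libraries from cells exposed to 0.2 uM salinomycin, a potassium ionophore, for 24 hours. The labels give neither the promoter that drives TWIST1 nor whether a line is 1 clone, so the line and the transgene cannot be told apart. The other 6 libraries, 3 per line, are from mock-treated (DMSO) cells and served only to ask whether a line difference was of another size without the drug.

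Epithelial cells hold to each other through adherens junctions, desmosomes and tight junctions and to the basement membrane through hemidesmosomes, with keratin filaments anchored at both. In the transition, TWIST1 and other factors of the SNAI, ZEB and PRRX families shut down this programme and turn on a mesenchymal one of vimentin, N-cadherin and secreted matrix. Salinomycin is known for killing mesenchymal, stem-like breast cancer cells more readily than epithelial ones. It carries potassium across membranes. Genes of the secretory pathway, of sterol synthesis and of iron handling were followed beside the lineage genes, from lists chosen with earlier results of these data known.

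The 6 libraries held between 20.45 M and 24.91 M reads recovered from the deposited values. Levels below are normalised reads, that is reads divided by a size factor set over the 6 libraries, and are compared between lines for 1 gene at a time, not between genes. A log2 difference is HMLE-Twist minus HMLE-pBp on log2(normalised reads + 5), with its standard error (SE), and a gene is called higher or lower at an adjusted p under 0.05 (limma, Benjamini-Hochberg over all genes tested). For a gene near 0 reads in 1 line, the added 5 makes the log2 difference understate the gap. Correlations of log2 values over the genes tested ran from 0.9854 to 0.9947 within a line and from 0.7404 to 0.7671 between lines. In a principal component analysis the lines parted along component 1 (96% of variance). Along component 2 (2.2%) HMLE-pBp replicates 1 to 3 lay at 25.42, -4.42 and -20.48, and HMLE-Twist replicates 1 to 3 at 6.57, 4.21 and -11.31. Both lines thus ran in replicate order, with HMLE-pBp replicate 1 at the high end. Results that rest on HMLE-pBp replicate 1 are given without it too. The series calls its replicates biological without saying what separated them, so p-values measure the spread between these samples only.

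Of 26364 genes in the tables, 12798 had at least 20 normalised reads in at least 3 of the 6 libraries and were tested. Of these, 8441 were called (66.0%), 4188 higher in HMLE-Twist (32.7%) and 4253 lower (33.2%). At a difference of 2-fold or more, 1370 genes were higher (10.7%) and 1996 lower (15.6%). The lines did not overlap in 9033 genes (70.6%). The median log2 difference over all genes tested was 0.02, and the direction of a small difference depended on the scaling. With libraries scaled to total reads, log2 differences moved up by a median of 0.15, and 5338 genes were higher (60.2% of those called, against 49.6%) and 3525 lower. Below, 37 gene lists are read against these shares, and the plot of shares by list shows them side by side.

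**Figure D1:**
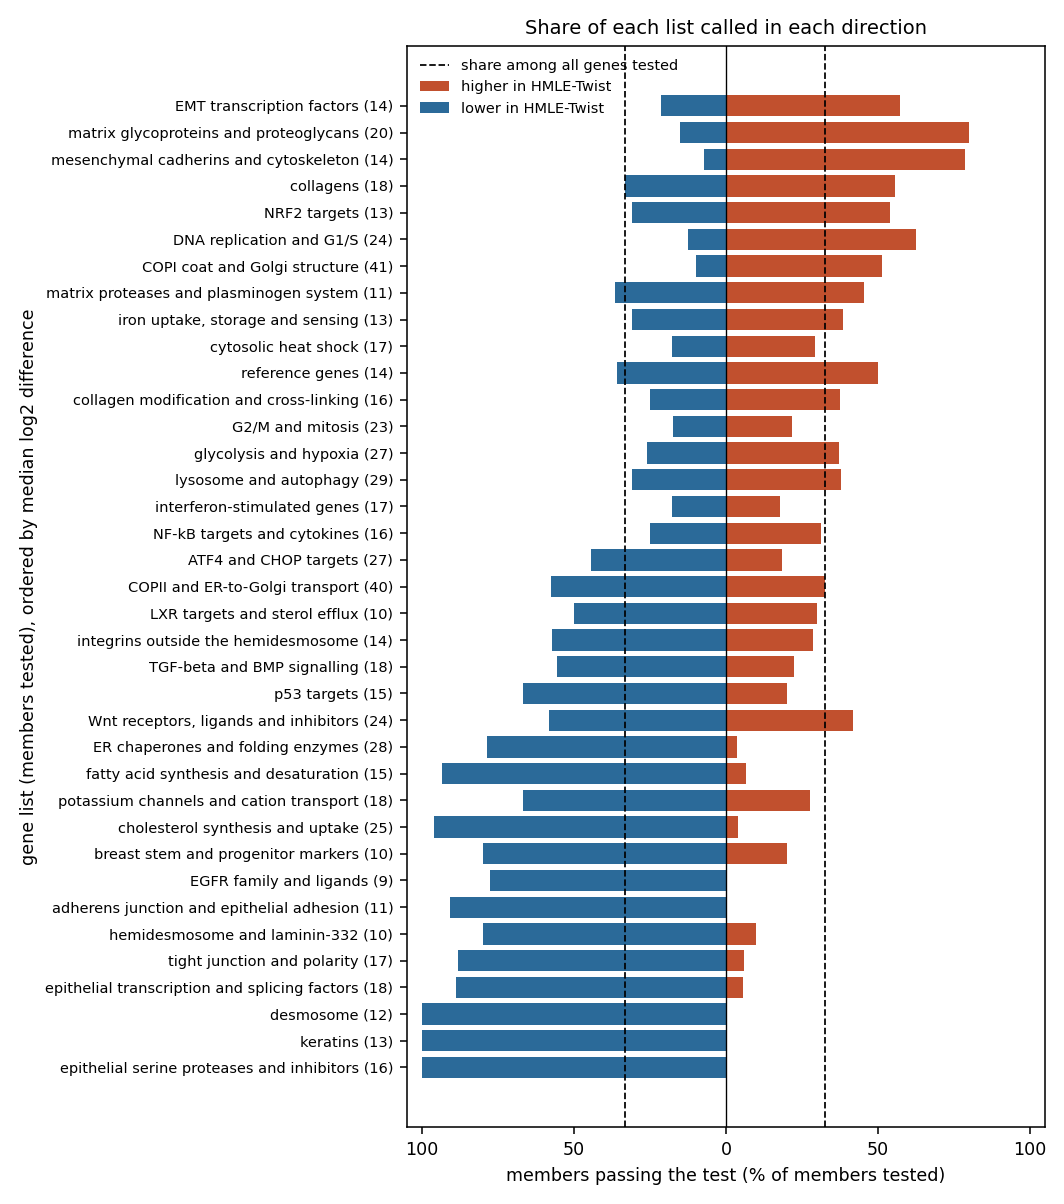
Members of each gene list called higher (right, red) or lower (left, blue) in HMLE-Twist under salinomycin, in percent of the members tested, whose number stands in brackets. Dashed lines mark the shares among all 12798 genes tested, 32.7% higher and 33.2% lower. Lists of junctions, keratins and epithelial proteases lie at the bottom with all or nearly all members lower, and matrix and EMT transcription factor lists lie at the top.

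TWIST1, the factor that defines the HMLE-Twist line, had 30207, 25119 and 41999 normalised reads in HMLE-Twist replicates 1 to 3 and 65.2, 79.1 and 84 in HMLE-pBp replicates 1 to 3, a log2 difference of 8.62 ± 0.17 (SE, adjusted p = 4.46e-10). The 2 lines therefore carried TWIST1 as labelled under salinomycin. An introduced and an endogenous copy are not separated in these values. Of 14 EMT transcription factors tested, 8 were higher in HMLE-Twist, 3 lower and 3 not called, with a median log2 difference of 2.82.

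ZEB1, a zinc finger repressor of epithelial genes, had 2373, 3094 and 2470.0 normalised reads in HMLE-Twist and 15.5, 24.1 and 8.73 in HMLE-pBp, a difference of 7.03 ± 0.25 (adjusted p = 1.02e-08). ZEB2, its paralogue, differed by 5.53 ± 0.19 and SNAI1 by 3.40 ± 0.21, with every HMLE-Twist library above every HMLE-pBp library. PRRX1, a homeobox factor of mesenchyme, had 1758, 1429.9 and 1304 normalised reads in HMLE-Twist and a single read over the 3 HMLE-pBp libraries, a ratio of 4119 (95% interval 739 to 162731, exact conditional binomial, counting error only). FOXC2, a forkhead factor, was higher by 4.18 ± 0.26. The factors were not all higher. SNAI2, which encodes Slug, stood at -0.05 ± 0.17 (adjusted p = 0.826), TCF3 at -0.04 ± 0.14 and HMGA2 at 0.04 ± 0.11, while KLF8 was lower at -2.02 ± 0.18 and TCF4 at -0.85 ± 0.17. FOXC1, at -0.43 ± 0.16 (adjusted p = 0.0409), is not called with total-read scaling (-0.27, adjusted p = 0.16) or upper-quartile scaling (-0.38, adjusted p = 0.0631), which leave 2 of the 14 lower.

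**Figure D2:**
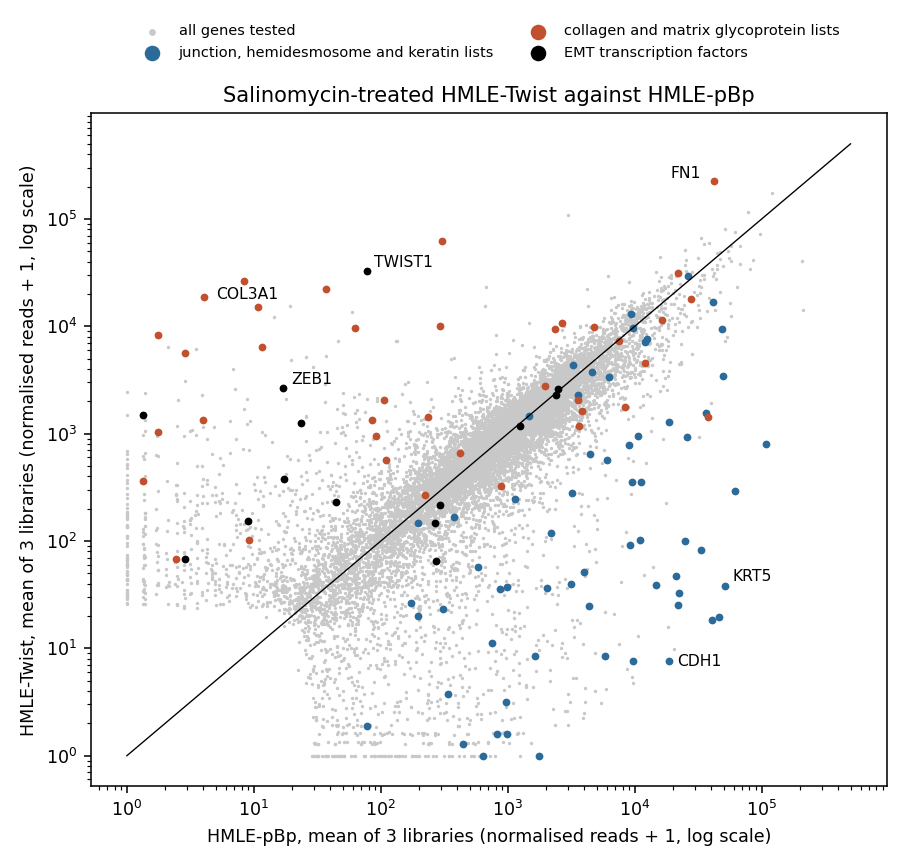
Mean normalised reads + 1 of 3 libraries in HMLE-pBp (x) and HMLE-Twist (y) under salinomycin, both on log axes, for all genes tested (grey), with junction, hemidesmosome and keratin genes in blue, collagens and matrix glycoproteins in red and EMT transcription factors in black. The line marks equal values. TWIST1, ZEB1 and COL3A1 lie far above it and CDH1 and KRT5 far below.

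Junction genes were lower in HMLE-Twist almost throughout. Of 11 adherens junction and adhesion genes tested, 10 were lower and none higher (median -3.49). All 12 desmosome genes were lower (median -5.14), and 15 of 17 tight junction and polarity genes were lower and 1 higher (median -4.46).

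CDH1, which encodes E-cadherin, the adhesion receptor of adherens junctions, had 15.9, 2.99 and 0.828 normalised reads in HMLE-Twist and 19265, 19216 and 17403 in HMLE-pBp, a log2 difference of -10.88 ± 0.38 (adjusted p = 9.45e-09). EPCAM, an epithelial adhesion molecule, had 5.6, 7.98 and 9.11 against 5108, 5745 and 6672 (-8.86 ± 0.15). CDH3, which encodes P-cadherin, differed by -8.73 ± 0.19. The cytoplasmic partners of the cadherins differed far less, with CTNNA1 at -0.70 ± 0.08, CTNND1 at -0.39 ± 0.14, not called with total-read scaling, and CTNNB1, beta-catenin, not called at -0.02 ± 0.07 (adjusted p = 0.839). Among desmosome genes, the cadherin DSG3 had 6.54, 3.99 and 9.11 normalised reads in HMLE-Twist and 10866, 9784 and 8369 in HMLE-pBp (-9.73 ± 0.18). The plaque linker DSP differed by -7.94 ± 0.14 and plakoglobin (JUP) by -6.58 ± 0.14, while the plaque protein PKP1 was the least changed at -0.87 ± 0.08. In tight junctions CLDN4 differed by -7.07 ± 0.19, CLDN7 by -6.17 ± 0.15 and the adhesion molecule F11R by -6.71 ± 0.10. The scaffold TJP1 differed by -0.28 ± 0.10, not called with total-read scaling (-0.12, adjusted p = 0.282). The polarity gene CRB3 had 0, 0 and 0.828 normalised reads in HMLE-Twist and 343, 419 and 572 in HMLE-pBp (-6.38 ± 0.22).

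ZEB and SNAI repressors are known to bind the E-box CAGGTG in promoters of such genes. RefSeq (GRCh38.p14) gives promoters for 20 of the 40 tested junction genes, and CAGGTG on either strand lies in the 250 bases before the start in 11 of their 31 promoters, of 10 genes, against 17.5% of all 35116 promoters. The 10 genes are CLDN7, CRB3, DSC2, DSG2, DSP, JUP, OCLN, RAB25, TJP1 and TJP3, with differences from -7.94 ± 0.14 (DSP) to -0.28 ± 0.10 (TJP1). Nearly all of the 40 tested junction genes were lower, so a lower level does not set apart genes with a match. A match is a description of the sequence and not a site of binding. The promoters of CLDN7, DSP and CRB3 are shown because these 3 genes were far lower in HMLE-Twist and hold 4, 2 and 5 matches, in capitals, in the 250 bases printed 5′ to 3′ up to the start.
CLDN7 (chr17:7262479-7262728, minus strand): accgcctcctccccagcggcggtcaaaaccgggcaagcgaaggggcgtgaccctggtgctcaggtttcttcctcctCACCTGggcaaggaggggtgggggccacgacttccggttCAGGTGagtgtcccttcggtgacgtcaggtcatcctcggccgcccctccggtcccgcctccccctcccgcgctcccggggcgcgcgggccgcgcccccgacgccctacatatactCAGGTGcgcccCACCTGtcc
DSP (chr6:7541421-7541670, plus strand): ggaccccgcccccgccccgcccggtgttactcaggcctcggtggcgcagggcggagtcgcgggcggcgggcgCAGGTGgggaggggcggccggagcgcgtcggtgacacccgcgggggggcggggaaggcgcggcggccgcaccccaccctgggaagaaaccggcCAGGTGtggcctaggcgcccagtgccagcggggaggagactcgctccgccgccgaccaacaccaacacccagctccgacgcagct
CRB3 (chr19:6464021-6464270, plus strand): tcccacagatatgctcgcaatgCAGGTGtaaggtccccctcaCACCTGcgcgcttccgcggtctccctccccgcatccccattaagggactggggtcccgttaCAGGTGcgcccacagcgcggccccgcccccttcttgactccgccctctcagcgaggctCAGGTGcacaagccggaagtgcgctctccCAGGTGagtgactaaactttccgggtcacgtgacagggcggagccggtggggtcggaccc

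**Figure D3:**
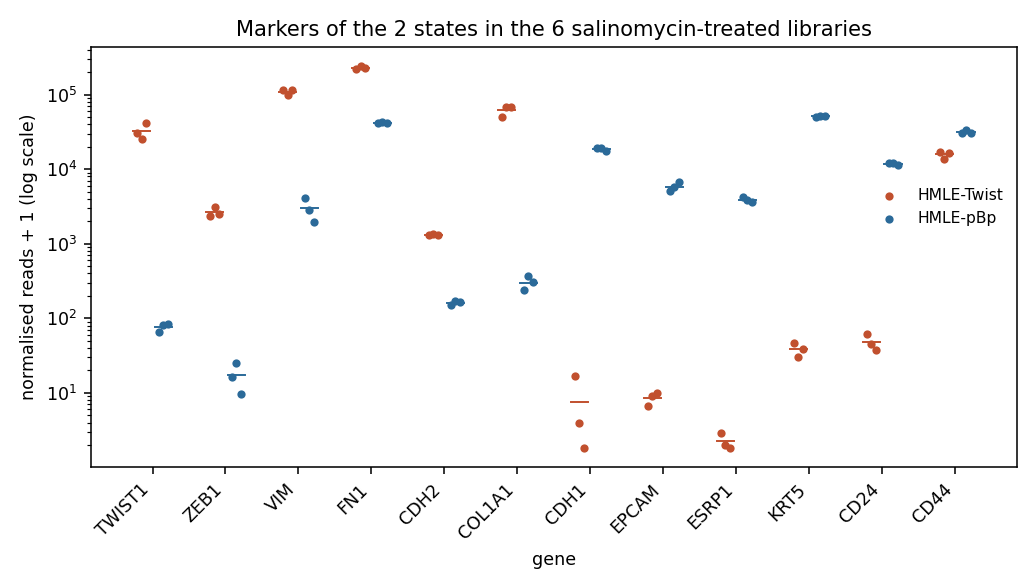
Normalised reads + 1 (log axis) of 12 marker genes in each of the 6 salinomycin-treated libraries, HMLE-Twist in red and HMLE-pBp in blue, with bars at the means. The lines do not overlap in any of the 12 genes. CD44 and CD24, drawn from the stem and progenitor list, are both lower in HMLE-Twist, at -1.0 and -7.85 on the log2 scale.

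The keratins and the machinery that fixes epithelial cells to the basement membrane were lower nearly throughout. All 13 keratins tested were lower in HMLE-Twist, with a median of -7.06. It was -7.73 with genes at 0 reads in HMLE-Twist set to 3 normalised reads per library, a working upper limit for a count of 0. KRT5, the basal keratin, had 45.8, 28.9 and 37.3 normalised reads in HMLE-Twist and 50061, 51742 and 51619 in HMLE-pBp (-10.26 ± 0.13, adjusted p = 1.65e-10). KRT6A, a keratin of activated keratinocytes, differed by -10.90 ± 0.26 and KRT17 by -9.60 ± 0.22. The simple-epithelial keratins kept more of their level, with KRT8 at -3.43 ± 0.15, KRT18 at -3.49 ± 0.10 and KRT7 at -2.37 ± 0.10.

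Of 10 hemidesmosome and laminin-332 genes, 8 were lower and 1 higher (median -4.20). COL17A1, the transmembrane collagen of the hemidesmosome, had the lowest difference of any gene with at least 1000 normalised reads in 1 line: 38.3, 7.98 and 9.11 normalised reads in HMLE-Twist against 38786, 52890.1 and 45194 in HMLE-pBp (-11.15 ± 0.39). The integrin subunit ITGB4 differed by -8.60 ± 0.20, and the laminin-332 chain LAMA3 by -7.70 ± 0.14. DST, a linker of keratin to the hemidesmosome, was higher at 0.47 ± 0.08, and PLEC, plectin, was not called at 0.21 ± 0.30 (adjusted p = 0.547).

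Of 18 epithelial transcription and splicing factors, 16 were lower and 1, GATA3, higher at 0.69 ± 0.12 (list median -4.49, or -4.84 with genes at 0 reads set to that limit). ESRP1, which sets epithelial splice choices, had 1.87, 0.997 and 0.828 normalised reads in HMLE-Twist and 4264, 3805 and 3658 in HMLE-pBp (-9.30 ± 0.14). TP63, the master factor of basal epithelium, differed by -8.57 ± 0.16. GRHL2, a grainyhead factor of epithelial identity, had 2 reads in all 3 HMLE-Twist libraries together, and was 2141-fold lower (95% interval 592 to 17686, exact conditional binomial). TFAP2C was not called at 0.14 ± 0.14 (adjusted p = 0.412).

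Secreted and membrane proteases of epithelia were lower too, as all 16 serine proteases and inhibitors tested were, with a median of -7.40. The membrane protease ST14, matriptase, had 5.6, 4.99 and 2.48 normalised reads against 7115, 10354 and 11199 in HMLE-pBp (-9.99 ± 0.20). Its inhibitor SPINT2 had 17.7, 16 and 10.8 against 17498, 17931 and 19049 (-9.86 ± 0.14). KLK5, a kallikrein, differed by -9.29 ± 0.15 and PRSS8, prostasin, by -9.25 ± 0.13, while SERPINB5, maspin, kept the most at -2.42 ± 0.11. Other genes among the 12 lowest were FAT2, an atypical cadherin (-10.69 ± 0.34), FGFBP1, a carrier of fibroblast growth factors (-10.20 ± 0.27), S100A14, a calcium-binding protein (-9.75 ± 0.23), and MAL2, a protein of apical transport (-9.62 ± 0.21).

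Host transcripts of 2 miRNAs are named here after their values were seen. MIR205HG had 1.87, 0 and 0 normalised reads in HMLE-Twist and 1087, 1077 and 1468 in HMLE-pBp (-7.76 ± 0.20, adjusted p = 1.36e-09). MIR155HG had 104, 103 and 66.3 against 3.11, 8.03 and 3.27 (3.30 ± 0.26, adjusted p = 2.96e-06). The mature miRNAs themselves were not measured by these mRNA libraries. They are printed, from RefSeq (GRCh38.p14), because miR-205-5p is known to repress ZEB1 and ZEB2 and because the 2 hosts differed in opposite directions, with the seed (bases 2 to 8) in capitals.
hsa-miR-205-5p (chr1:209432166-209432187, plus strand): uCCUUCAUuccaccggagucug
hsa-miR-155-5p (chr21:25573983-25574006, plus strand): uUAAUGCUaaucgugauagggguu

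Mesenchymal structure and matrix genes were higher in HMLE-Twist, with exceptions inside each list. Of 14 cadherin and cytoskeleton genes tested, 11 were higher and 1 lower (median 1.75). VIM, the intermediate filament vimentin, had 114815, 97958 and 115539.8 normalised reads in HMLE-Twist and 4093, 2839 and 1972 in HMLE-pBp (5.26 ± 0.22, adjusted p = 3.06e-08). CDH2, N-cadherin, had 1323, 1341 and 1295 against 150.2, 169.8 and 165 (2.99 ± 0.10). The contractile genes MYL9 and MYLK were higher by 4.44 ± 0.14 and 2.49 ± 0.10, ACTN1, an actin cross-linker, was lower at -0.92 ± 0.10, and CALD1 was not called at -0.08 ± 0.10 (adjusted p = 0.475).

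Of 18 collagen genes, 10 were higher and 6 lower (median 1.64). The fibrillar chain COL3A1 had the highest difference of any gene with at least 1000 normalised reads in 1 line, with 9696, 24274 and 22712 normalised reads in HMLE-Twist and 0, 8.03 and 1.09 in HMLE-pBp (11.22 ± 0.41, adjusted p = 1.27e-08). COL6A2, a chain of beaded filaments, had 22029, 23715 and 34180.2 against 2.07, 6.88 and 13.1 (11.15 ± 0.30). COL1A2 differed by 10.01 ± 0.21, COL6A1 by 9.11 ± 0.25 and COL1A1 by 7.68 ± 0.16. The lower ones included the basement membrane chains COL4A5 (-2.28 ± 0.14), COL4A6 (-0.82 ± 0.12) and COL4A2 (-0.48 ± 0.17), the multiplexin COL18A1 (-1.39 ± 0.20) and COL7A1 of anchoring fibrils (-1.38 ± 0.23). COL4A1 was not called at -0.02 ± 0.14 (adjusted p = 0.891). COL4A2 is not called with total-read (-0.33, adjusted p = 0.104) or upper-quartile scaling (-0.44, adjusted p = 0.0517).

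The enzymes that modify and cross-link collagen did not follow the fibrillar chains as a group. Of 16 tested, 6 were higher, 4 lower and 6 not called, with a median of 0.07. PCOLCE, which promotes trimming of procollagen, had 3699, 4742 and 4129.9 normalised reads in HMLE-Twist and 29, 33.3 and 22.9 in HMLE-pBp (6.98 ± 0.15), and ADAMTS2, the protease that trims its amino end, was higher by 5.68 ± 0.29. BMP1, the protease of the carboxyl end, was lower at -1.69 ± 0.12. LOXL2 and P4HA1, for cross-linking and prolyl hydroxylation, were not called at -0.11 ± 0.11 (adjusted p = 0.381) and 0.09 ± 0.11 (adjusted p = 0.499).

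Among matrix glycoproteins and proteoglycans, 16 of 20 tested were higher and 3 lower (median 2.82). FN1, fibronectin, had 219383, 237819 and 223747 normalised reads in HMLE-Twist and 41509.9, 43069 and 41631 in HMLE-pBp (2.43 ± 0.09, adjusted p = 1.91e-08). NID1, a basement membrane linker, had 7004, 9298 and 8298 against 0, 2.29 and 0, which is 2 reads, a ratio of 11279 (95% interval 3122 to 93139.7, exact conditional binomial). DCN, the proteoglycan decorin, was higher by 9.71 ± 0.23, FBLN5 by 8.71 ± 0.17 and FBN1, fibrillin, by 7.20 ± 0.16. The members that were lower were TGFBI (-4.71 ± 0.11), TNC, tenascin C (-1.24 ± 0.09), and THBS1, thrombospondin (-0.61 ± 0.14). CTGF stood at 0.77 ± 0.32 (adjusted p = 0.0586), and without HMLE-pBp replicate 1, where it read 701 against 312 and 252 in the other 2, at 1.20 (adjusted p = 7.34e-05). Of 11 matrix proteases and plasminogen genes, 5 were higher, led by the gelatinase MMP2 (5.72 ± 0.09), and 4 lower, led by MMP9 (-5.44 ± 0.25).

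The remaining genes among the 12 highest were ENPP2, the secreted enzyme autotaxin, with 5998, 6771 and 6631 normalised reads in HMLE-Twist and 3 reads in HMLE-pBp, a ratio of 5930.2 (95% interval 2029 to 28758, exact conditional binomial). WNT5A, GREM1, ANPEP, a membrane aminopeptidase, and SDC2, a heparan sulphate proteoglycan, were also among them, at 9.66 ± 0.14, 9.50 ± 0.32, 9.41 ± 0.19 and 8.82 ± 0.20. TRPA1, a cation channel, had 2513, 2158 and 2609.9 normalised reads in HMLE-Twist and 0 in all 3 HMLE-pBp libraries, and so was at least 809-fold higher, against 3 normalised reads per library.

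Wnt and TGF-beta genes included both higher and lower members, and EGFR family genes lower ones alone. Of 24 Wnt genes tested, 10 were higher and 14 lower (median -0.75), or 10 and 12 with total-read scaling, under which FZD4 (adjusted p = 0.127) and FZD8 (adjusted p = 0.0761) were not called. The ligands WNT5A and WNT5B were higher (9.66 ± 0.14 and 4.57 ± 0.19) and so were their receptors ROR1 and ROR2 (2.54 ± 0.10 and 4.52 ± 0.23). The inhibitor SFRP1 had 9.34, 6.98 and 13.3 normalised reads in HMLE-Twist and 5471, 8896 and 8018 in HMLE-pBp (-8.96 ± 0.21). RNF43, a ligase that removes Wnt receptors, had 0 in all 3 HMLE-Twist libraries and was at least 199-fold lower, WNT10A was lower at -6.59 ± 0.24, and the co-receptor LRP6, a proposed target of salinomycin, was lower at -0.75 ± 0.08. Of 18 TGF-beta and BMP genes, 4 were higher and 10 lower (median -0.44). The BMP antagonist GREM1 had 14064, 10962 and 11242 normalised reads against 22.8, 12.6 and 4.37 and the co-receptor TGFBR3 was higher by 5.66 ± 0.17, while the ligand BMP2 was lower at -4.93 ± 0.20 and TGFB1 was not called at -0.26 ± 0.21 (adjusted p = 0.304), or lower at -0.50 without HMLE-pBp replicate 1. Of 9 genes of the EGFR family and its ligands, 7 were lower and none higher (median -3.0), from TGFA at -7.63 ± 0.17 to ERBB2 at -0.58 ± 0.12, and EREG and NRG1 were not called at -0.01 ± 0.23 (adjusted p = 0.966) and 0.14 ± 0.14 (adjusted p = 0.405, and 0.28 with adjusted p = 0.0435 without HMLE-pBp replicate 1).

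Genes listed as markers of breast stem and progenitor cells were lower in 8 of 10 cases and higher in 2 (median -2.23). The list does not separate markers known by a high level from those known by a low level. Its count and median therefore give no direction for a stem-like state. CD24 had 59.8, 43.9 and 36.4 normalised reads in HMLE-Twist and 12061, 11968 and 11233 in HMLE-pBp (-7.85 ± 0.15). CD44 had 17199.9, 13493 and 16442 against 30332, 33567 and 30088 (-1.0 ± 0.11), so that both were lower and CD24 far more so. THY1 (2.86 ± 0.11) and BMI1 (0.85 ± 0.26) were the higher ones. NGFR and ALDH1A3 were lower at -7.40 ± 0.22 and -7.29 ± 0.12. In bulk RNA, fewer cells expressing a gene and less RNA per cell cannot be told apart.

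Of 18 potassium channel and cation transport genes, the family closest to salinomycin's action as an ionophore, 12 were lower and 5 higher (median -1.43). The channel KCNK1 had 4.67, 1.99 and 4.14 normalised reads in HMLE-Twist and 1529.7, 1381 and 1284 in HMLE-pBp (-7.36 ± 0.17), and its relative KCNK2 had 474, 529 and 523 against 6.21, 4.59 and 3.27 (5.74 ± 0.17). KCNMA1, a calcium-activated potassium channel, was higher by 2.70 ± 0.13. ATP1B1, a subunit of the sodium-potassium pump, was lower at -2.52 ± 0.08. Of 14 integrins outside the hemidesmosome, 8 were lower, led by ITGB6 (-9.53 ± 0.21) and ITGB8 (-6.35 ± 0.15), and 4 higher, led by ITGA7 (4.29 ± 0.18).

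Inside the secretory pathway the lists differed in direction. ER chaperones and folding enzymes, which fold new proteins in the endoplasmic reticulum, were lower in HMLE-Twist in 22 of 28 cases and higher in 1 (median -1.03). COPI and Golgi structure genes were higher in 21 of 41 cases and lower in 4 (median 0.29, or 0.44 with total-read scaling). COPII and ER-to-Golgi transport genes were higher in 13 of 40 cases and lower in 23, with a median of -0.27, and total-read scaling leaves 16 of them lower (median -0.11). Without HMLE-pBp replicate 1 these counts were 1 and 22 of the 28, 25 and 5 of the 41, and 13 and 22 of the 40, higher and lower in that order.

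HSPA5, which encodes BiP, the main chaperone of the ER lumen, had 39058, 42607 and 42927 normalised reads in HMLE-Twist and 87832, 91373 and 78178 in HMLE-pBp (-1.04 ± 0.10, adjusted p = 1.04e-05). HYOU1, a partner of BiP, differed by -1.45 ± 0.10, the oxidase ERO1A by -1.38 ± 0.09 and CANX, calnexin, by -1.23 ± 0.10. Every HMLE-Twist library lay below every HMLE-pBp library in all 4 genes. RCN3, a reticulocalbin that binds calcium, went against the list with 967, 1039 and 1064 normalised reads in HMLE-Twist and 11.4, 10.3 and 9.82 in HMLE-pBp (6.05 ± 0.14). ERO1B, SELK, FKBP14, RCN1 and CALU were not called, at 0.20 ± 0.17, -0.15 ± 0.12, 0.02 ± 0.11, 0.20 ± 0.08 and -0.21 ± 0.11. The ER stress factors ATF6 and XBP1, known to induce most of the list, are counted in it and were lower, at -1.03 ± 0.09 and -1.06 ± 0.10. Their part in the other differences was not tested.

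ATF6 is known to act through the ER stress response element, made of CCAAT and CCACG with 9 bases of any kind between them. RefSeq (GRCh38.p14) gives promoters for 25 of the 28 genes, and the element, on either strand, lies in the 250 bases before the start in 9 of their 31 promoters, of 8 genes, against 0.074% of all 35116 promoters. The 8 genes are CALR, CANX, CRELD2, ERO1B, HSP90B1, HSPA5, PDIA6 and XBP1, of which 7 were lower and ERO1B was not called. In the whole list 22 of 28 were lower, so this count does not set apart genes with the element. Promoters of HSPA5, CALR and PDIA6 are shown with the element in capitals, in CALR on the opposite strand.
HSPA5 (chr9:125241344-125241593, minus strand): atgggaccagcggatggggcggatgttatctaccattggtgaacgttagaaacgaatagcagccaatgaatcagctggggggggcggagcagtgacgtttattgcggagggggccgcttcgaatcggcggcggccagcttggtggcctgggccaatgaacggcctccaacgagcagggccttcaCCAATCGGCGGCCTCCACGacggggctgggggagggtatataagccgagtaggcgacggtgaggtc
CALR (chr19:12938359-12938608, plus strand): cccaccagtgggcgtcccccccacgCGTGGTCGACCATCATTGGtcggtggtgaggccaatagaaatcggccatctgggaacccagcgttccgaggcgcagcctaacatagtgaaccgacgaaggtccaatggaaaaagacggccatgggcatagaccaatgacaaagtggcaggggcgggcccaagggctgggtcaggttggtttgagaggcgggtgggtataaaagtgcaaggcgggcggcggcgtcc
PDIA6 (chr2:10812786-10813035, minus strand): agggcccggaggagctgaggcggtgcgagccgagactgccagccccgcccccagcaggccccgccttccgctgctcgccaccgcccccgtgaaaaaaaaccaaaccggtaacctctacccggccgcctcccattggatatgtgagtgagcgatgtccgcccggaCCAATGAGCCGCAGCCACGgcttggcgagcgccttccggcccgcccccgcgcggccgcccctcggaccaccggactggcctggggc

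Single genes of the early secretory pathway differed in both directions. The COPII coat genes SEC13 (1.03 ± 0.11), SEC24D (0.90 ± 0.13) and SEC23A (0.84 ± 0.12) and the COPI coat genes COPB2 (0.95 ± 0.08) and COPG1 (0.82 ± 0.08) were higher in HMLE-Twist, SEC23B (-0.16 ± 0.09) and SEC24A (-0.27 ± 0.14) were not called, and SEC24B was lower at -0.29 ± 0.11, though not with total-read scaling (-0.13, adjusted p = 0.304). The fusion proteins SEC22B and STX5 were higher by 1.26 ± 0.13 and 1.22 ± 0.10. Lower were the cargo receptors LMAN2 (-1.29 ± 0.11), TMED7 (-1.24 ± 0.10) and TMED10 (-1.19 ± 0.08). KDELR3, a receptor that returns escaped proteins to the ER, had 5958, 6249 and 5574 normalised reads in HMLE-Twist and 3548, 3163 and 2446 in HMLE-pBp (0.97 ± 0.13, adjusted p = 1.04e-04), while its paralogue KDELR1 was lower at -0.65 ± 0.10. COPZ2, a COPI subunit, was higher by 2.05 ± 0.13, and CREB3L1, a Golgi-cleaved factor that drives collagen secretion, had 993, 1307 and 1197 against 1.04, 2.29 and 1.09 (7.49 ± 0.17).

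**Figure D4:**
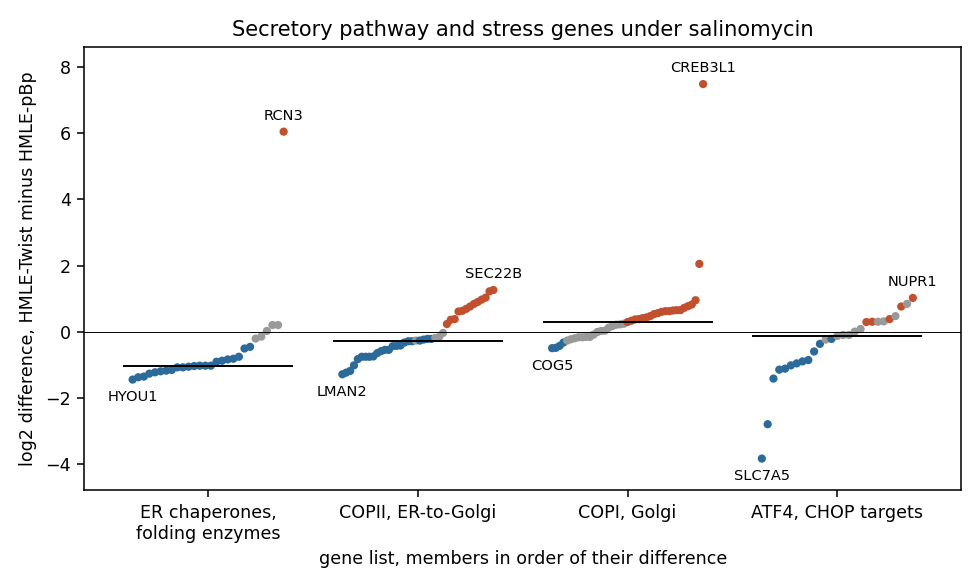
Log2 difference (HMLE-Twist minus HMLE-pBp, salinomycin) of each tested member of 4 lists, in order of size, red where called higher, blue where called lower and grey where not called, with black bars at the list medians. ER chaperones lie below 0 with a median of -1.03 apart from RCN3, COPI and Golgi genes lie around 0.29, and CREB3L1 and SLC7A5 stand at the ends.

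Targets of ATF4 and CHOP, the factors of the integrated stress response, were lower in 12 of 27 cases, higher in 5 and not called in 10. Their median was -0.13, which total-read scaling turns to 0.02. The amino acid transporter SLC7A5 had 15745, 13091 and 13981 normalised reads in HMLE-Twist and 144348, 244408 and 240306 in HMLE-pBp (-3.84 ± 0.19, adjusted p = 1.07e-07), and its partner SLC3A2 differed by -2.80 ± 0.13. NUPR1, a stress-induced chromatin protein, was higher by 1.02 ± 0.15. DDIT3, which encodes CHOP, had 839, 1218 and 885 against 1358, 555 and 452, so the lines overlapped and it was not called (0.47 ± 0.35, adjusted p = 0.261). Without HMLE-pBp replicate 1, the library with 1358, DDIT3 was higher by 0.94 (adjusted p = 4.41e-04), and PPP1R15A, which ends the response and read 2339.5 in that library against 742 and 749, went from 0.84 ± 0.37 (adjusted p = 0.0687) to 1.39 (adjusted p = 1.26e-07). ATF4 itself stood at 0.30 ± 0.12 (adjusted p = 0.0509) and at 0.42 without that library.

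Sterol genes were lower in HMLE-Twist nearly throughout. Of 25 genes of cholesterol synthesis and uptake, 24 were lower in HMLE-Twist, 22 of them by 2-fold or more, and PMVK was higher, at 0.42 ± 0.13 (list median -1.83). HMGCS1, an early enzyme of the pathway, had 3248, 3384 and 3026 normalised reads in HMLE-Twist and 10484, 12187 and 11648 in HMLE-pBp (-1.83 ± 0.08, adjusted p = 6.40e-08). SQLE, squalene epoxidase, differed by -2.76 ± 0.10. The libraries of the lines did not overlap in either gene. SREBF2, which encodes a factor known to drive the pathway and is counted in the list, was lower at -1.29 ± 0.11. Its part in the other differences was not tested. Of 15 fatty acid genes, 14 were lower and 1, FADS2, higher at 0.51 ± 0.12 (list median -1.13), with the desaturase SCD at -2.36 ± 0.12 and the acetate-activating enzyme ACSS2 at -2.13 ± 0.15.

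The same genes were then set beside their line difference under mock. In a fit of all 12 libraries, the line difference under salinomycin minus that under mock, the shift, was tested for 13163 genes, and 1586 were called (12.0%), 842 with a shift up (6.40%) and 744 with a shift down (5.65%). The recovered mock level of a gene is the smallest that its deposited values allow and may be too low by a whole multiple that both lines share, so mock and salinomycin levels are compared below through the line difference in each and not directly. A shift down means that HMLE-Twist lay further below, or less far above, HMLE-pBp under salinomycin than under mock. Left-out libraries moved the count by over 1.5 times: it was 833 without HMLE-Twist salinomycin replicate 1, 836 without its replicate 3 and 1040 without HMLE-pBp salinomycin replicate 2. It was 882 without HMLE-Twist mock replicate 2, 2512 without its replicate 3, and 881 and 791 without HMLE-pBp mock replicates 2 and 3.

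In the cholesterol list, 22 of 25 genes had a shift down and none a shift up, with a median shift of -1.67. Under mock, 10 of the 25 were higher in HMLE-Twist and 11 lower (median -0.10), where 36.8% of all genes were called higher and 36.8% lower. HMGCS1, scaled over 12 libraries, had 7835, 4156 and 6819 normalised reads in HMLE-Twist mock and 2109, 2675 and 3029 in HMLE-pBp mock, and so was higher in HMLE-Twist under mock (1.23), against 3242, 3368 and 3023 and 10423, 12098 and 11558 under salinomycin. Its shift was -3.05 ± 0.27 (adjusted p = 3.00e-05). INSIG1, which retains the SREBP proteins in the ER, went from 0.33 under mock to -2.37 (shift -2.69 ± 0.35). ACAT2, for the first step of the pathway, went from 1.55 to -1.02 (shift -2.56 ± 0.16) and TM7SF2, a sterol reductase, from 0.04 to -2.59 (shift -2.62 ± 0.37). PMVK and SREBF2 had shifts that were not called, at -0.08 (adjusted p = 0.799) and -0.17 (adjusted p = 0.513). The count of shifts down in the list ran from 19 to 23 over the alternatives that left out 1 library, and SQLE and DHCR7 lost their call in at least 1 of all alternatives tried. In the fatty acid list 7 of 15 shifted down and none up (median -0.82), with ACSS2 the lowest of any named gene, from 1.37 under mock to -2.13 (shift -3.49 ± 0.20, adjusted p = 1.24e-06).

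**Figure D5:**
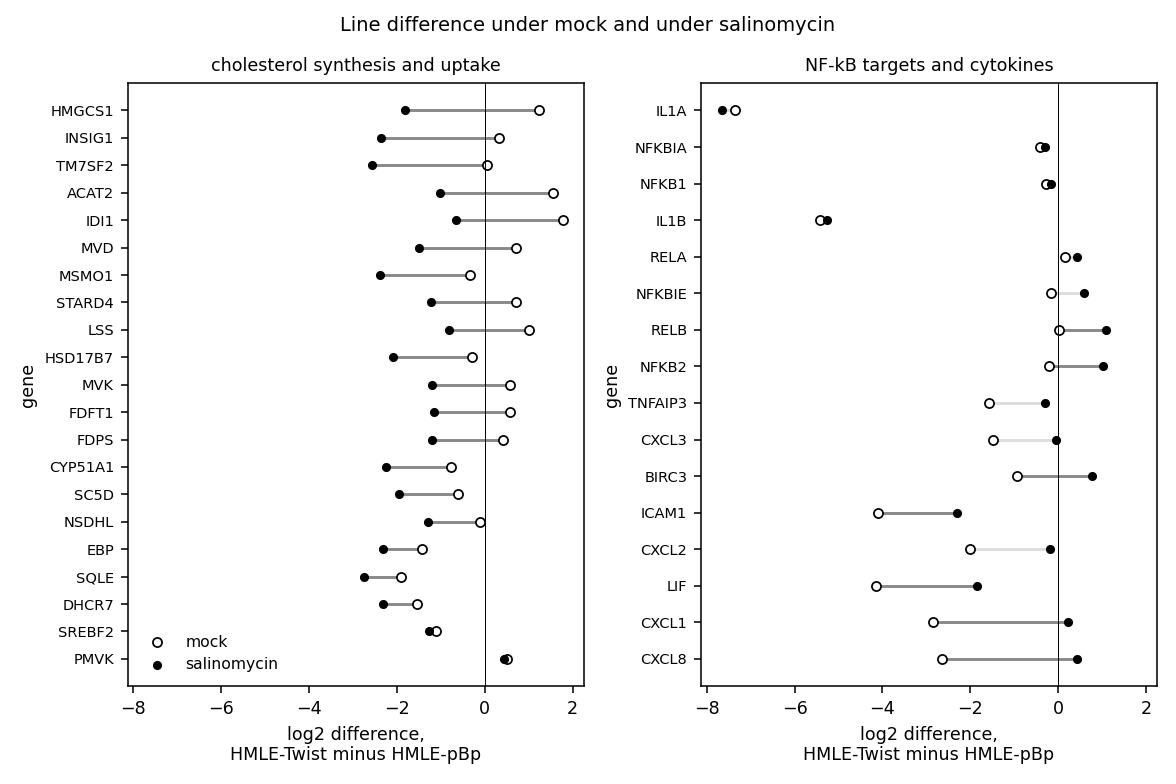
Log2 line difference (HMLE-Twist minus HMLE-pBp) of 21 of the 25 cholesterol genes (left) and all 16 NF-kB and cytokine genes (right) under mock (open) and salinomycin (filled), from the fit of 12 libraries, with dark joining lines where the shift was called and pale ones where it was not. In 19 of the 21 cholesterol genes drawn the filled point lies to the left of the open one with a called shift, and in 7 of 16 NF-kB genes to the right.

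NF-kB targets and cytokines shifted the other way. Under mock 10 of the 16 genes were lower in HMLE-Twist and none higher. Under salinomycin 5 were higher, 4 lower and 7 not called (median -0.12, or 0.03 with total-read scaling), and 7 shifted up and none down, with a median shift of 1.26. The chemokine CXCL8 had 13.9, 3.15 and 4.58 normalised reads in HMLE-Twist mock and 77.9, 64 and 57.7 in HMLE-pBp mock, against 239.5, 111 and 180.4 and 275, 90 and 74.7 under salinomycin (shift 3.08, adjusted p = 0.00751). CXCL1 shifted up by 3.07 ± 0.70 (adjusted p = 0.015), and under salinomycin neither chemokine differed by the test (0.43 ± 0.44, adjusted p = 0.414, and 0.22 ± 0.57, adjusted p = 0.746). HMLE-pBp replicate 1 held the highest salinomycin level of both. Without it CXCL8 was higher in HMLE-Twist by 0.99 (adjusted p = 0.00854), CXCL2, at -0.19 with it, was higher by 0.63 (adjusted p = 0.0166), and the list's median was 0.58. IL1A had 7.47, 9.97 and 6.63 against 4563, 2009 and 1959 (-7.66 ± 0.30) and IL1B differed by -5.28 ± 0.20, with no called shift in either. The subunits NFKB2 and RELB were higher by 1.03 ± 0.12 and 1.09 ± 0.17. RELB and BIRC3 lost their shift call in 10 and 6 of the alternatives tried, and the count of shifts up in the list ran from 5 to 9 with 1 library left out.

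Beyond these lists the highest shift up was that of AK5, an adenylate kinase, which had 18.9, 20 and 26 normalised reads in HMLE-Twist mock and 439, 471 and 526 under salinomycin, with 0 in all 6 HMLE-pBp libraries (shift 4.19 ± 0.24, adjusted p = 1.24e-06). With no HMLE-pBp reads, the AK5 shift rests on the mock level itself, which is a lower bound. SLCO4A1, an organic anion transporter, had 35.8, 15.8 and 29.8 against 930.3, 1053 and 1414 in HMLE-pBp under mock, and 289.8, 147 and 172 against 538, 764 and 836 under salinomycin (shift 3.36 ± 0.40). IER3, an immediate early gene, shifted by 3.18 ± 0.34 and the phosphatase DUSP4 by 2.44 ± 0.25. RCN3 shifted by 2.37 ± 0.30, but its HMLE-pBp mock libraries had 0, 1.28 and 1.89 normalised reads, and with 1 added read in place of 5 the shift was 1.20 (adjusted p = 0.128). PRUNE2 shifted down by -3.05 ± 0.35, from 2949, 2667 and 2258 against 5.33, 12.8 and 13.2 under mock to 1395, 1786 and 1584 against 99.9, 69.5 and 49.8. Among lineage genes, TWIST1, CDH1, VIM, CDH2 and ZEB1 had shifts of 0.64, -0.22, -0.20, 0.52 and -1.02 that were not called (adjusted p = 0.239, 0.791, 0.68, 0.0762 and 0.0567), while PRRX1 shifted up by 0.98 (adjusted p = 0.0305), FOXC2 up by 1.46 (adjusted p = 0.032), ESRP1, nearly without reads in HMLE-Twist, down by -1.26 (adjusted p = 0.0118), KRT5 down by -1.59 ± 0.35 and FN1 up by 0.74 (adjusted p = 0.00549).

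Iron genes were higher in 5 of 13 cases and lower in 4 (median 0.14), or in 7 and 3 with total-read scaling (median 0.29). TFRC, the transferrin receptor, had 20989.8, 15857 and 18087 normalised reads in HMLE-Twist and 37437, 40874 and 36842 in HMLE-pBp (-1.08 ± 0.11, adjusted p = 1.95e-05). The ferritin light chain FTL had 35210.2, 27803 and 25052 against 8162, 4794 and 5388 (2.29 ± 0.19), and HMOX1, the heme oxygenase, had 2301, 1873 and 2304 against 113, 81.4 and 80.8 (4.49 ± 0.15). CYBRD1, an iron reductase, was higher by 2.32 ± 0.10, and LCN2, an iron-siderophore carrier, had 0 in all 3 HMLE-Twist libraries and was at least 266-fold lower. None of TFRC, FTL or HMOX1 had a called shift from mock (adjusted p = 0.128, 0.25 and 0.326). Of 13 NRF2 targets 7 were higher and 4 lower (median 0.53), with AKR1C1 at 3.52 ± 0.28 and NQO1 at 1.32 ± 0.09, and GCLC, for glutathione synthesis, at -2.05 ± 0.12.

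The other lists held smaller or mixed differences. Lysosome and autophagy genes were higher in 11 of 29 cases and lower in 9 (median -0.06, which total-read scaling turns to 0.10), from WIPI1, of the autophagosome, at 2.06 ± 0.15 to CTSD, cathepsin D, at -1.73 ± 0.15. DNA replication genes were higher in 15 of 24 cases and lower in 3 (median 0.31), with TK1, thymidine kinase, at 1.44 ± 0.07 and CCND2, cyclin D2, at -3.40 ± 0.13, while G2/M genes were higher in 5 and lower in 4 of 23 (median 0.03, or 8 and 3 with a median of 0.18 with total-read scaling). Glycolysis and hypoxia genes were higher in 10 and lower in 7 of 27 (median 0.02, or 13 and 7 with a median of 0.17 with total-read scaling), with the neuronal enolase ENO2 at 2.21 ± 0.12 and CA9, a hypoxia-induced carbonic anhydrase, at -2.64 ± 0.19, and 8 shifted down and none up from mock, led by ALDOC at -2.37. LXR targets were higher in 3 and lower in 5 of 10 (median -0.27), p53 targets in 3 and 10 of 15 (median -0.55), heat shock genes in 5 and 3 of 17 (median 0.14, or 7 and 1 with a median of 0.29 with total-read scaling) and interferon-stimulated genes in 3 and 3 of 17 (median -0.11, or 0.04 with total-read scaling). Of 14 genes often used as references, 7 were higher and 5 lower, among them GAPDH (0.58 ± 0.10), ACTB (-0.40 ± 0.10) and GUSB (-1.07 ± 0.08), and PPIA (0.01 ± 0.08) and TBP (-0.09 ± 0.11) were not called.

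Markers of breast epithelium, the labelled tissue, were present in HMLE-pBp and mostly lower in HMLE-Twist. All 8 basal breast markers were tested and lower in HMLE-Twist, with summed levels of 3069 to 4672 normalised reads against 231978 to 263118 in HMLE-pBp. Of 12 luminal markers 8 were tested, 6 lower and 2 higher (7140.1 to 7297 against 25191 to 27357). Of 10 leukocyte markers 8 stayed under 20 normalised reads in every library, with CD3E at 0 in all 6. The summed level was 1469.8 to 1647 against 729 to 1112. In HMLE-Twist it was mostly CD68, with 1452, 1420.0 and 1586 against 484, 485 and 517 in HMLE-pBp (1.57 ± 0.09). CD14 went the other way, with 45.8, 45.9 and 48 against 242, 494 and 591 (-3.02 ± 0.28). Of 8 endothelial markers 6 stayed under 20 with CDH5 at 0, but the other 2 were higher in HMLE-Twist, KDR by 4.47 ± 0.25 and TEK by 2.60 ± 0.19, and the summed level was 159.9 to 233 against 13.5 to 19.6. Of 8 adipocyte and muscle markers 7 stayed under 20, with ADIPOQ and MYOD1 at 0, and FABP4 was higher by 2.11 ± 0.26 (summed level 41.1 to 58.8 against 11.4 to 20.6). The part of other cell types in these results was not tested.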

How the data were processed

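RNA was sequenced from 3 replicates each of HMLE-Twist and HMLE-pBp cells, mock or salinomycin treated, with a stranded mRNA kit per the labels' protocols. Reads were processed with DESeq2 1.1.0 against hg19 per the submitters' processing notes, while no aligner or counter is named in the labels. The deposited mock tables hold FPKM values. The deposited salinomycin tables hold shrunken log2 values of normalised reads, found from the values themselves. Whole reads were recovered from both by inverting these scales, and among genes with a mean of at least 20 reads 98.1% and 94.7% of values in HMLE-Twist and HMLE-pBp fell within 0.1 read of a whole number. Mock reads of a gene are known up to a whole multiple that both lines share. It cancels in a line difference except through the pseudocount, but leaves the mock level itself a lower bound. Mock libraries held 17.30 M to 25.68 M reads.

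Line differences were tested with limma 3.58.1 in R 4.3.3 (trend, two-sided) on log2(normalised reads + 5), median-of-ratios scaling, for genes with at least 20 normalised reads in at least 3 of 6 libraries, at a Benjamini-Hochberg adjusted p under 0.05. The shift from mock was an interaction contrast over 12 libraries. On simulated data with 12610 genes the line test recovered 54.0% of 1.5-fold and 98.0% of 2-fold increases, and 91.1% of 2-fold decreases. With 12706 genes the shift test recovered 8.0% and 56.0% of these increases, and 56.0% of 2-fold decreases. The simulation gave every gene the same dispersion, not one fitted to these libraries, so the rates need not hold for them. Intervals and limits for genes near 0 cover counting error only. Folds given as at least take 3 normalised reads per library for a count of 0, a working limit and not a hard bound. Reads of overlapping genes and of close paralogues, such as the keratins, could be split by the counting used.

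The comparison, lists and tests were chosen with earlier results of these data known. Named were marker genes, the 12 highest and 12 lowest genes with at least 1000 normalised reads in 1 line and no overlap, up to 4 called members per list with uncalled defining members, and the 6 highest and 6 lowest shifts with at least 200 normalised reads. Some members of the lists enter the counts but are not reported here by name. Other list members were named after their values were seen. Alternatives covered pseudocount, filter, scaling, voom, the deposited shrunken values, a replicate block and leaving out each library. Python 3.11.15 with numpy 2.4.6, pandas 2.3.3 and scipy 1.17.1 was used.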

Additional observations from a re-analysis of the deposited data

Results flagged for a closer look

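The results here are those whose line difference under salinomycin differed from that under mock by a test of the difference itself, over 12 libraries (limma interaction, adjusted p under 0.05), and for single named genes by at least 1.5 on the log2 scale. Over all genes tested the count was 1586. Values below are log2 shifts, salinomycin minus mock.

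Among lipid genes the shifts were -3.49 for ACSS2, -3.05 for HMGCS1, -2.69 for INSIG1, -2.62 for TM7SF2, -2.56 for ACAT2, -2.05 for MSMO1 and -1.69 for SCD, and 1.58 for the sterol exporter ABCG1. Among cytokine and growth factor genes they were 3.08 for CXCL8, 3.07 for CXCL1, 2.30 for LIF, 1.80 for ICAM1, 1.99 for AREG and 1.92 for EREG. For matrix and protease genes they were 1.67 for CTGF, 1.88 for MMP9 and 1.56 for MMP2, and for the keratin KRT5 -1.59. In the secretory and stress lists RCN3 shifted by 2.37 and SLC7A5 by 1.69. The other genes were AK5 at 4.19, SLCO4A1 at 3.36, IER3 at 3.18, DUSP4 at 2.44, KCNG1, a potassium channel subunit, at 1.64, ALDOC at -2.37 and PRUNE2 at -3.05.

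Some of these calls were lost under an alternative. AREG lost its call without HMLE-Twist salinomycin replicate 1 or 3, HMLE-pBp salinomycin replicate 1 or 2, HMLE-Twist mock replicate 2 or HMLE-pBp mock replicate 1 or 3 (shifts of 1.55 to 2.01, adjusted p from 0.0509 to 0.0785). ABCG1 lost it with 1 added read and without HMLE-Twist salinomycin replicate 2 or 3, HMLE-pBp salinomycin replicate 1 or HMLE-pBp mock replicate 2 or 3 (1.31 to 1.64, adjusted p from 0.0554 to 0.0862). CTGF lost it without HMLE-Twist salinomycin replicate 3, HMLE-pBp salinomycin replicate 2, HMLE-Twist mock replicate 2 or HMLE-pBp mock replicate 1 (1.5 to 1.53, adjusted p from 0.0521 to 0.0636). RCN3 lost it with 1 added read (1.20, adjusted p = 0.128).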

How the results depend on the processing

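The count of genes that differed between the lines ran from 6402 to 11259 over pseudocounts, filters, scalings, voom, the deposited shrunken values and the 12-library fit, and from 7518 to 8941 with 1 library left out. With a replicate block it was 9032. The count of shifts from mock was 1440 and 1740 with 1 and 20 added reads, 3574 with a replicate block and 791 to 2512 with 1 library left out. The cause of these changes was not tested. Same-numbered libraries of the lines correlated at 0.24, -0.003 and 0.482 in their deviations, and libraries with unlike numbers from -0.421 to 0.191. The labels do not say that the numbers pair samples, so the main tests are unpaired and the block is an alternative. Whether the numbers mark samples handled together was not tested. Line differences under the alternatives were tallied for the 316 genes that the naming rule took, in 5023 values. Of these, 4802 kept their call or lack of one (uncalled values near 0 could change sign), 214 gained a call and 6 lost it. CXCL2, uncalled and below 0, was called above 0 in 1 value, 0.63 without HMLE-pBp salinomycin replicate 1 (-0.71 to 0.63 with 1 library left out). The rule took the called members of each list with the largest differences, so the tally does not cover most smaller called ones. FOXC1, COL4A2, CTNND1 and TJP1, named outside the rule, are not in the tally and lost their calls with another scaling. Of 1129 shift values, 1064 stayed as they were called, 45 lost the call and 20 gained one. With a mean of at least 200 normalised reads required, the endothelial and adipocyte and muscle marker lists gave no value. Genes that did not reach 20 normalised reads in at least 3 libraries were not tested.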
